A study of Mus musculus with 53 samples.

Results

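The genes described here are 38 genes of the unfolded protein and amino acid stress responses, chosen by symbol from the 43432 genes that both RNA tables list. Of these, 25 are known targets or regulators of the transcription factor ATF4, called the ATF4 arm here. The other 13, called the ER arm, are chaperones, sensors, transcription factors and degradation factors of the endoplasmic reticulum (ER). RNA was sequenced from mouse embryonic fibroblasts (MEFs), cultured connective tissue cells of the embryo, that were labelled either ANP32E-KO (KO) or wild type (WT). ANP32E is a histone chaperone known to remove the histone variant H2A.Z from chromatin. In a first set of 10 libraries, KO and WT cells had received decitabine (DAC), which blocks DNA methylation, or DMSO. The groups were KO DAC (n = 3), WT DAC (n = 3), KO DMSO (n = 2) and WT DMSO (n = 2). In a second set of 12 libraries the cells had been given siRNA against H2AZ or a control siRNA labelled NT, as KO H2AZ siRNA, WT H2AZ siRNA, KO NT siRNA and WT NT siRNA (n = 3 each). The sources used here do not give the KO allele, the number of embryos or clones behind each genotype, or the decitabine dose and time.

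The unfolded protein response starts at sensors in the ER membrane. ATF6 is cut and ERN1 (IRE1 alpha) splices the Xbp1 mRNA, and the resulting factors switch on chaperones such as HSPA5 (BiP) and HSP90B1 (GRP94). A further sensor, PERK, phosphorylates the translation factor eIF2, as do kinases that respond to amino acid lack, heme lack or double-stranded RNA. Phosphorylated eIF2 slows general translation but favours translation of Atf4 mRNA. ATF4 in turn activates genes for amino acid synthesis, amino acid import, tRNA charging and stress signalling. The ATF4 arm can therefore be induced with or without the chaperones. ATF4 activity is set largely at translation, which RNA levels do not show.

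The known DNA elements of both arms were sought in RefSeq promoter windows of build GRCm38.p6, from 250 bases before to 50 bases after each gene's start, on both strands. A window was held for 32 of the 38 members. Those without one were Slc7a5, Slc7a3, Nars, Wars, Atf6 and Manf. The C/EBP-ATF element that ATF4 binds, searched as TGATGNAA, was in windows of 8 of 21 ATF4-arm genes, of 1 of 11 ER-arm genes (Herpud1), and in 3.97% of all 32851 windows. The ER stress response element (ERSE), searched as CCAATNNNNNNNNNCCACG, was in windows of 0 of 21 ATF4-arm genes, of 5 of 11 ER-arm genes, and in 0.119% of all windows. The variant element ERSE-II, searched as ATTGG and CCACG with any base between them, was found for Herpud1 alone among the members and in 0.0365% of all windows. The unfolded protein response element that XBP1 and ATF6 bind, searched as TGACGTG, was found for Hspa5 alone among the members and in 2.01% of all windows. No matches to different elements overlapped in a member's window. A match is a description of these letters and not a binding site or a cause, and a window without one says nothing about the factor.

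The 250 bases before the start are shown for a gene of each arm, Asns and Hspa5, read along the gene 5′ to 3′. The matched letters are in capitals. For Asns, at chr6:7693210-7693459 on the minus strand of GRCm38.p6, the capitals mark the TGATGNAA match, 23 to 16 bases before the start. For Hspa5, at chr2:34771840-34772089 on the plus strand, the capitals mark TGACGTG and then the ERSE, 65 to 47 bases before the start. In the same build RefSeq places the Asns gene at chr6:7675165-7693209 and the Hspa5 gene at chr2:34772090-34776529.
Asns: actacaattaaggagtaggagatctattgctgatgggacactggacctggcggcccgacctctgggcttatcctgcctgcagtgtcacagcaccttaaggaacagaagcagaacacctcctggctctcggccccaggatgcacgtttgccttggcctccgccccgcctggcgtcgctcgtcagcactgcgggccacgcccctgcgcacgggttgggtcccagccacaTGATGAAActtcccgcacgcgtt
Hspa5: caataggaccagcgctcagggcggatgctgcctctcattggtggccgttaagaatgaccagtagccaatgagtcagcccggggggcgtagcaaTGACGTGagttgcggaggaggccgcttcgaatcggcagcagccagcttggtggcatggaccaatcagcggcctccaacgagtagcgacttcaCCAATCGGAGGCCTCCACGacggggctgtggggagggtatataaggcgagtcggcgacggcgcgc

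The other matches of the ATF4 arm are shown with 8 flanking bases on each side, each on the strand on which the element reads. Their genes include Trib3 and Vldlr, which like Asns were called higher in KO than in WT cells under every treatment. Shmt2 and Slc3a2, whose windows held no match, also differed between the genotypes under every treatment, Slc3a2 not always in the same direction. They lie at chr2:152344031-152344054 (plus strand) for Trib3, chr7:126625565-126625588 (plus) for Nupr1, chr6:55037963-55037986 (minus) for Gars, chr2:119351041-119351064 (minus) for Chac1 and chr19:27216812-27216835 (minus) for Vldlr. Slc7a11 and Aars each held a pair of matches, of which the first is shown, at chr3:50443664-50443687 (minus) and chr8:111033722-111033745 (minus). The Trib3 match lies 15 to 22 bases after the start. The capitals mark TGATGNAA.
Trib3: cgcccggcTGATGTAAacctgagc
Nupr1: gccctgtcTGATGCAAtctggccc
Gars: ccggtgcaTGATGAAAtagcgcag
Chac1: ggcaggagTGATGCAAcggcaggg
Vldlr: aggagcgcTGATGCAActattgct
Slc7a11: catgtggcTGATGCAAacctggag
Aars: ggctcggcTGATGCAAtgctcaag

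The ER-arm matches are shown in the same way. Of the chaperones with an ERSE, Hspa5, Hsp90b1, Pdia6 and Dnajc3 were lower in KO than in WT cells under both siRNAs. Chaperones with no ERSE found were called lower too: Manf, which had no window, under both siRNAs, Pdia4 under H2AZ siRNA and Sdf2l1 under NT siRNA. The ERSE matches lie at chr10:86705525-86705559 (plus) for Hsp90b1, which holds a further match, chr12:17266483-17266517 (plus) for Pdia6, chr14:118937819-118937853 (plus) for Dnajc3 and chr15:88819512-88819546 (minus) for Creld2. The Herpud1 line is its ERSE-II match at chr8:94386369-94386395 (plus). The capitals mark the element.
Hsp90b1: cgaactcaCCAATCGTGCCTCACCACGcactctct
Pdia6: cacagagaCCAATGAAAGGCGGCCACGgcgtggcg
Dnajc3: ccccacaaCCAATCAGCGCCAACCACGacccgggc
Creld2: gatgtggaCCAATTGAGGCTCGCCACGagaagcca
Herpud1: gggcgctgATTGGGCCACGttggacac

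**Figure D1:**
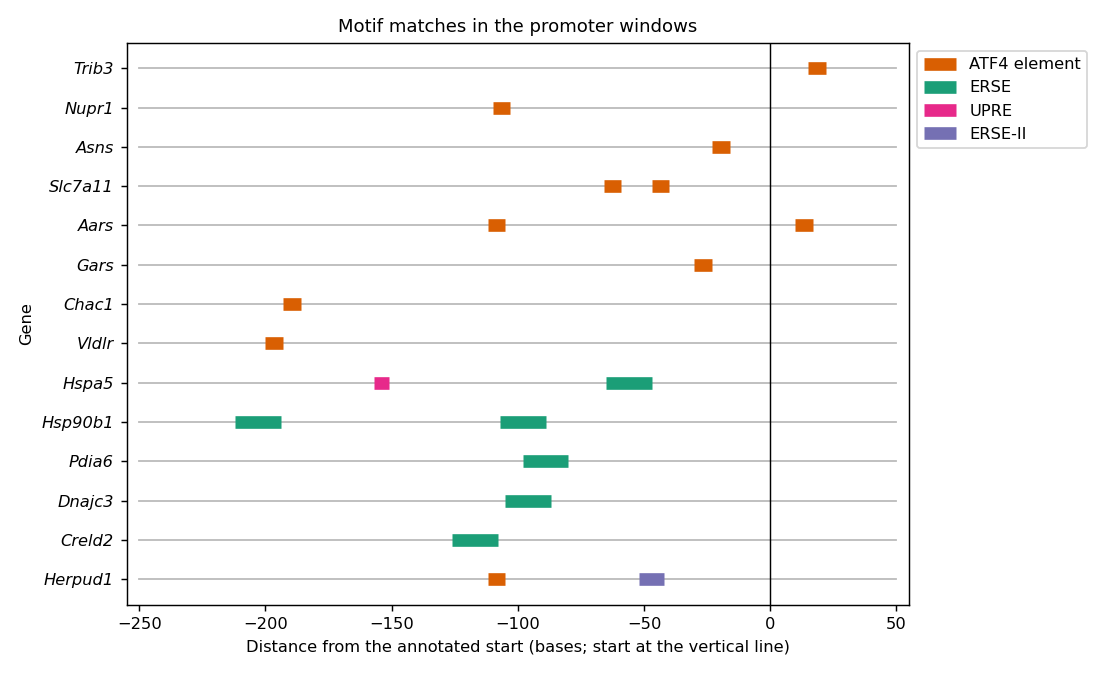
Matches to the ATF4 element, ERSE, ERSE-II and the unfolded protein response element in the promoter windows of 14 members, by distance in bases from the gene's start. ERSE matches lie in windows of 5 ER-arm genes and in none of the ATF4 arm, and ATF4 elements in windows of 8 ATF4-arm genes and of Herpud1.

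Read totals recovered from the values ran between 27503472 and 36910532 in the decitabine table and between 31928320 and 47172427 in the siRNA table, so that 1 read in a 1-kb transcript was worth at most 0.0364 FPKM or 0.0313 RPKM. Anp32e itself was lower but present in KO cells, at 6.96 ± 0.577 FPKM in KO DAC (SD, n = 3) against 15.7 ± 1.57 FPKM in WT DAC cells (n = 3). H2afz, which encodes H2A.Z.1, had 26.4 to 30.4 RPKM in KO H2AZ siRNA against 184 to 199 RPKM in KO NT siRNA cells, and 16.6 to 17.5 RPKM in WT H2AZ siRNA against 199 to 203 RPKM in WT NT siRNA cells. H2afv, which encodes H2A.Z.2, was lower too. It had 2.46 to 3.93 RPKM in KO H2AZ siRNA against 21.7 to 23.7 RPKM in KO NT siRNA cells. In WT cells it had 1.45 to 1.63 RPKM with H2AZ siRNA against 15.5 to 19.0 RPKM with NT siRNA. KO and WT cells also differed in sex-linked and lineage genes. The Y-linked gene Ddx3y had 3.02 to 6.73 in KO libraries of both tables against at most 0.072 in WT libraries (FPKM or RPKM). Xist had 28.5 to 44.4 FPKM in KO DAC and 0.579 to 0.923 FPKM in KO DMSO cells. WT DAC cells had 136 to 210 FPKM of Xist and WT DMSO cells 170 to 181 FPKM. In the siRNA libraries Xist had 4.12 to 6.33 RPKM in WT cells and at most 0.0014 RPKM in KO cells. The summed level of 14 mesothelial markers was 126 to 148 FPKM in KO DAC, 44.6 to 59.2 FPKM in WT DAC, 1162 to 1197 FPKM in KO DMSO and 10.8 to 13.3 FPKM in WT DMSO cells, where Gpm6a and Lrrn4 were at 0. It was 190.2 to 205 RPKM in KO H2AZ siRNA, 24.5 to 25.4 RPKM in WT H2AZ siRNA, 203 to 232 RPKM in KO NT siRNA and 24.7 to 25.9 RPKM in WT NT siRNA cells, where Upk1b and Wt1 were at 0. The 12 fibroblast markers were at 1 or more in every library, and their sum was 1892.5 to 2088 FPKM in KO DAC, 2298 to 2461 FPKM in WT DAC, 1959.6 to 2001 FPKM in KO DMSO and 3476 to 3599.7 FPKM in WT DMSO cells. Of these markers 9 of 12 were called lower and 1 higher both in KO DMSO against WT DMSO and in WT DAC against WT DMSO, and 5 lower and 6 higher in KO DAC against KO DMSO. In the siRNA table their sum was 2271 to 2475 RPKM in KO H2AZ siRNA, 1692.5 to 1719.9 RPKM in WT H2AZ siRNA, 2398 to 2524 RPKM in KO NT siRNA and 1705 to 1796 RPKM in WT NT siRNA cells. All comparisons of KO with WT cells therefore compare lines that differ in more than Anp32e, and these differences cannot be told apart from the genotype. The mesothelial and fibroblast sums moved with decitabine too, and their part in the results was not tested. In bulk RNA, fewer cells of a type and less RNA per cell cannot be told apart. In the decitabine table, replicate 3 of WT DAC and replicate 1 of KO DAC correlated with their group mates across genes at 0.979 to 0.981, against 0.987 between the remaining 2 libraries of either group. In the siRNA table, replicate 1 of KO NT siRNA did so at 0.994 and replicate 1 of WT NT siRNA at 0.995, against 0.995 and 0.996 between their group mates.

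**Figure D2:**
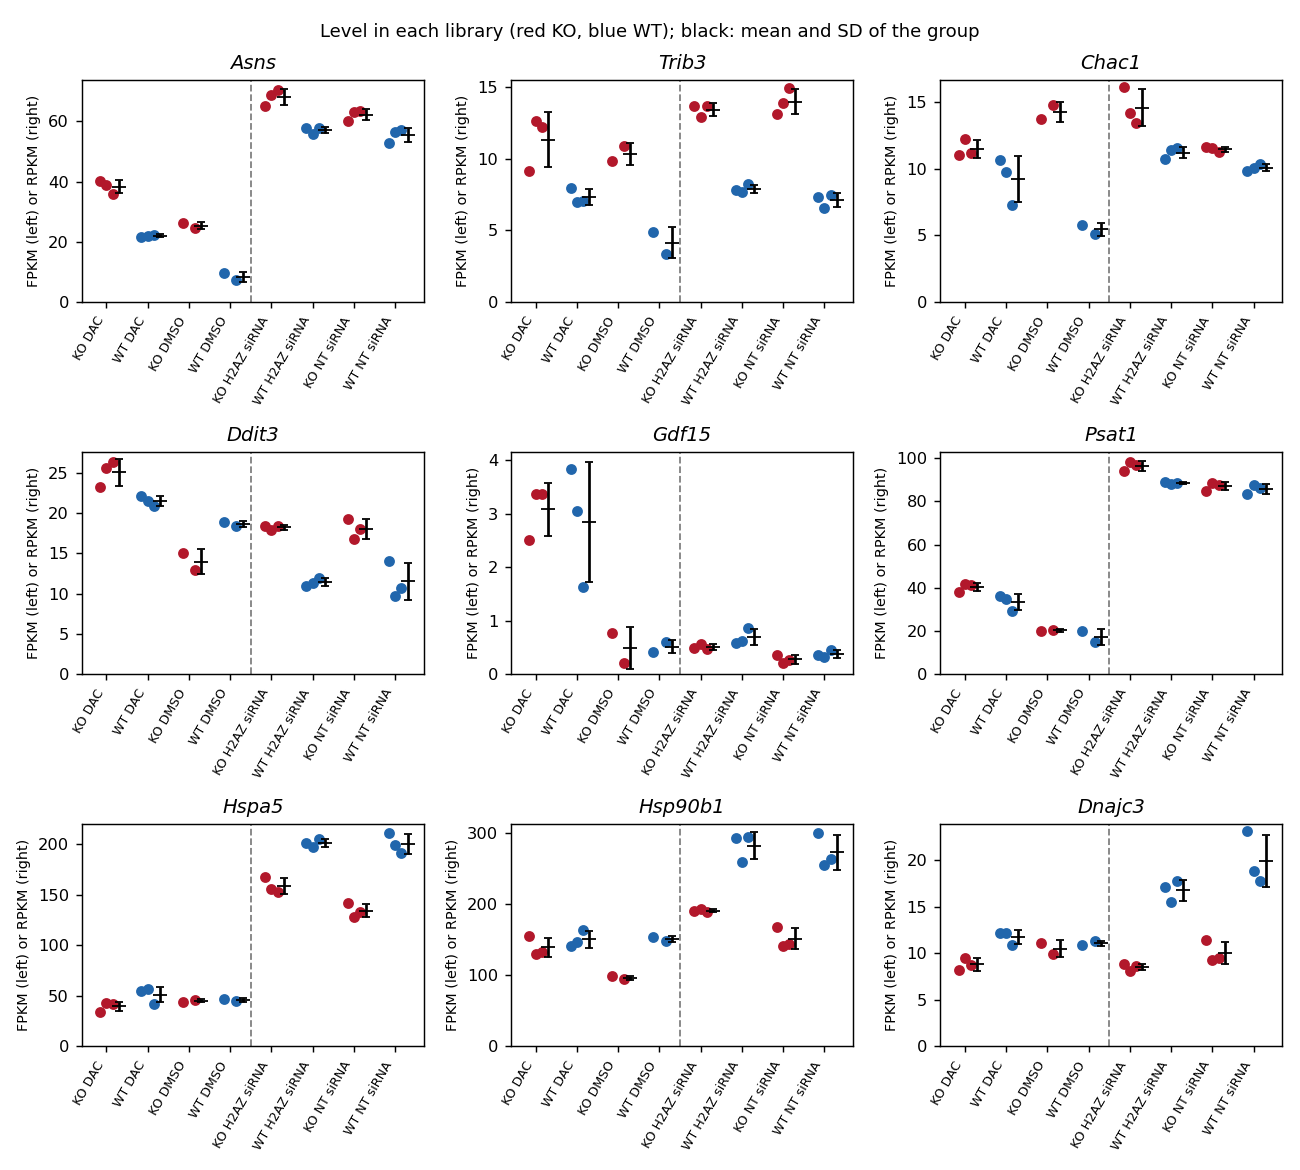
Values of 9 members in every library, in FPKM (left, decitabine table) and RPKM (right, siRNA table), with KO libraries in red, WT libraries in blue and the group mean ± SD in black. Asns in the 3 KO DAC libraries (35.9 to 40.1 FPKM) lies above all other decitabine-table libraries, and Dnajc3 and Hsp90b1 in the KO siRNA libraries lie below all WT siRNA libraries.

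After decitabine more ATF4-arm genes were called higher than lower in both genotypes. All differences below are log2 fold changes on the log2(value + 1) scale, which understates changes of low genes, and a gene was called at a limma adjusted p under 0.05. In KO cells, 15 of 25 ATF4-arm genes rose with decitabine and 2 fell, with a median log2 fold change of 0.44. Of all 16435 genes in the fit, 23.7% were called higher and 21.6% lower, with a median of 0.01. In WT cells, 13 of 25 rose and 0 fell, with a median of 0.39, against 14.5% of all genes called higher and 13.8% lower, with a median of −0.01. Of the 13 ER-arm genes, 4 rose and 3 fell in KO cells (median 0.02), and 2 rose and 0 fell in WT cells (median 0.13), which is near the background. Leaving out single libraries moved the ER-arm counts in KO cells to 1 to 5 higher and 1 to 4 lower, with 1 higher without KO DMSO replicate 2, 2 higher without KO DMSO replicate 1 or KO DAC replicate 3, and 1 lower without KO DMSO replicate 1. Among the 9 ER folding genes, 3 rose and 1 fell in KO cells, and 0 were called in either direction in WT cells. Members that rose in both genotypes were Nupr1, Asns, Psat1, Shmt2, Slc7a5, Gars, Nars, Wars and Gdf15, which are 9 of 25 ATF4-arm genes, and Ern1, 1 of 13 ER-arm genes, against 9.64% of all genes. The KO call of Ern1 was lost in 8 of 10 fits that left out a library. No member fell in both, against 6.99% of all genes. Gdf15, Slc7a3 and Slc7a11 passed the filter on low values only through the groups in which they were high. Without them the ATF4-arm counts were 14 higher and 1 lower of 22 in KO cells, and 12 higher and 0 lower in WT cells, with 8 of 22 higher in both.

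More ATF4-arm genes were also called higher than lower in KO against WT cells, with or without decitabine. Under DMSO, 9 of 25 ATF4-arm genes were higher and 4 lower in KO cells (median 0.24), and 3 of 13 ER-arm genes were higher and 2 lower (median −0.07), against 19.6% of all genes called higher and 22.9% lower (median −0.04). Without the 3 genes that depended on the filter, 8 of 22 ATF4-arm genes were higher and 4 lower. Under decitabine, 9 of 25 ATF4-arm genes were higher and 1 lower (median 0.23), and 2 of 13 ER-arm genes were higher and 1 lower (median −0.02), against 11.1% of all genes called higher and 11.6% lower. Without those 3 genes, 8 of 22 were higher and 1 lower. When single libraries were left out, 7 to 10 members over both arms were higher, in place of 11. The call of Stc2 was lost in 8 of 10 such fits, that of Slc7a5 in 5 and that of Trib3 in 4. Leaving out any of the 10 libraries left 1 ER-arm gene higher (Ern1), and without WT DAC replicate 3 the ER-arm genes lower were 5. The effect of decitabine differed between the genotypes for 11 of 38 members. Of these, 2 ATF4-arm and 1 ER-arm genes had a larger effect in KO cells, and 6 ATF4-arm and 2 ER-arm genes a smaller or more negative one, where 12.4% and 11.7% of all genes were called in those directions. Without the 3 genes that depended on the filter, 2 of 22 ATF4-arm genes had a larger effect and 5 a smaller or more negative one. In 8 of 10 fits that left out a library, 1 ATF4-arm gene had a larger effect in KO cells. Without replicate 3 of WT DAC and replicate 1 of KO DAC, 6 members in place of 2 were lower in KO than in WT decitabine-treated cells, and 4 of these were ER-arm genes. Of all 16249 genes in that fit, 2199 were called lower, in place of 1903 of 16435. Leaving out WT DAC replicate 3 alone gave 7 members lower.

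**Figure D3:**
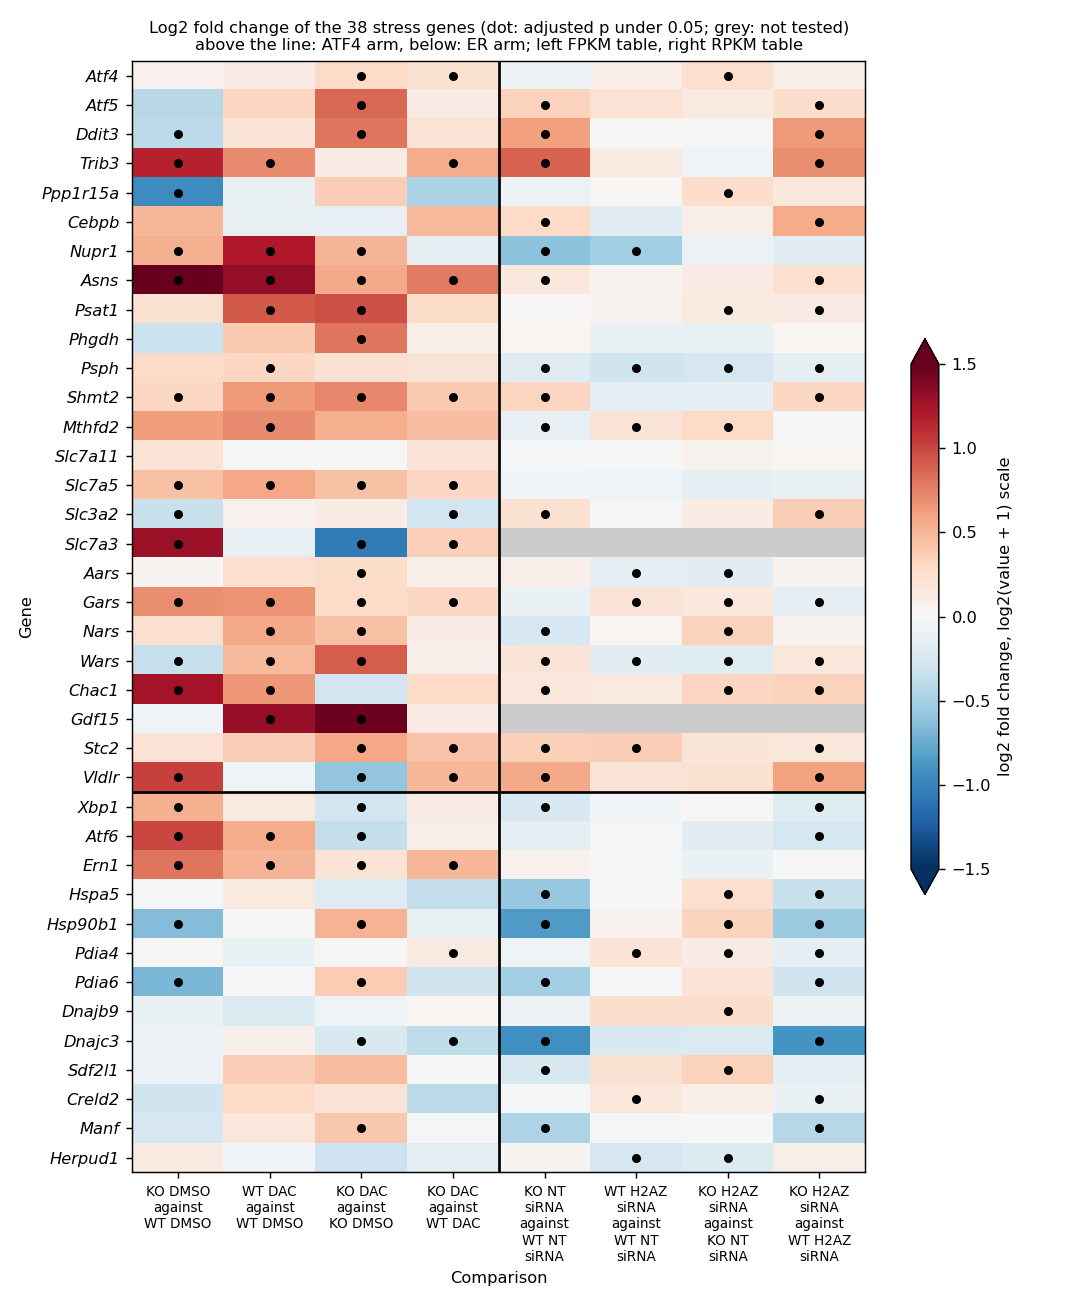
Log2 fold changes of the 38 members (rows, grouped by arm and role) in the 8 comparisons of 2 groups (columns, with the first-named group over the second), on the log2(value + 1) scale. Dots mark calls at a limma adjusted p under 0.05 and grey marks genes not tested, and the amino acid synthesis rows are red in both decitabine columns while the Hspa5, Hsp90b1, Pdia6, Dnajc3 and Manf rows are blue in both columns that set KO against WT siRNA-treated cells.

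The regulators of the ATF4 arm differed among themselves in the decitabine libraries. Atf4 had 126, 118 and 122 FPKM in KO DAC and 99.8, 106 and 105 FPKM in WT DAC cells. Atf4 under DMSO had 99.3 and 99.4 FPKM in KO and 94.3 and 95.7 FPKM in WT cells. Its RNA was highest in KO DAC cells, whose libraries lay above all others. The log2 fold change with decitabine was 0.29 ± 0.05 (SE, limma adjusted p = 0.00138) in KO cells and 0.12 (limma adjusted p = 0.0948) in WT cells, where it was called with each library scaled to its median (0.17, limma adjusted p = 0.043). KO DAC cells lay 0.23 above WT DAC cells (limma adjusted p = 0.00643). Ddit3, which encodes the stress transcription factor CHOP, had 23.2, 25.6 and 26.4 FPKM in KO DAC and 22.1, 21.6 and 20.9 FPKM in WT DAC cells. Ddit3 under DMSO had 15.1 and 12.9 FPKM in KO and 18.9 and 18.4 FPKM in WT cells. It was lower in KO than in WT cells under DMSO, at −0.40 ± 0.08 (SE, limma adjusted p = 0.00522), and rose with decitabine in KO cells by 0.80 ± 0.08 (SE, limma adjusted p = 5.17e-05), so that the decitabine effect differed by 0.61 ± 0.11 (SE, limma adjusted p = 0.00423). In WT cells its estimate with decitabine was 0.19 (limma adjusted p = 0.0952), although the libraries did not overlap, and it was called with that scaling (0.24, limma adjusted p = 0.0495). KO DAC against WT DAC was 0.21 (limma adjusted p = 0.0605) for Ddit3, and was called without replicate 1 of KO DAC (0.26, limma adjusted p = 0.0327) and under 5 other alternatives.

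Trib3 encodes a pseudokinase that ATF4 induces and that restrains ATF4. It had 9.14, 12.7 and 12.2 FPKM in KO DAC and 7.98, 7.001 and 7.05 FPKM in WT DAC cells. Trib3 under DMSO had 9.82 and 10.9 FPKM in KO and 4.89 and 3.38 FPKM in WT cells. KO DMSO libraries lay above both WT groups, at 1.16 ± 0.17 (SE, limma adjusted p = 0.000718) over WT DMSO, and WT DAC cells were above WT DMSO cells at 0.71 ± 0.16 (SE, limma adjusted p = 0.01), a call that was lost without WT DMSO replicate 2. KO DAC against WT DAC gave 0.55 ± 0.14 (SE, limma adjusted p = 0.0234), a call that was lost when any of 4 of the 6 libraries compared was left out (KO DAC replicate 2 or 3, WT DAC replicate 2 or 3), at log2 fold changes of 0.47 to 0.53. Ppp1r15a, which encodes the eIF2 phosphatase subunit GADD34, moved the other way between genotypes. Its levels were 11.4, 14.9 and 14.9 FPKM in KO DAC and 20.0, 23.2 and 15.5 FPKM in WT DAC cells. Ppp1r15a under DMSO had 10.6 and 10.1 FPKM in KO and 19.3 and 22.5 FPKM in WT cells. KO DMSO libraries were below both WT DMSO libraries, at −0.94 ± 0.18 (SE, limma adjusted p = 0.00332). Nupr1, a small stress-induced chromatin protein, had 10.1, 12.7 and 12.3 FPKM in KO DAC and 13.7, 14.4 and 11.1 FPKM in WT DAC cells. Nupr1 under DMSO had 8.11 and 7.60 FPKM in KO and 5.14 and 5.09 FPKM in WT cells. The rise in KO cells was 0.51. All 3 WT DAC libraries were above both WT DMSO libraries, at 1.20 ± 0.12 (SE, limma adjusted p = 0.000181), and the effects differed by −0.68 ± 0.17 (SE, limma adjusted p = 0.0199), a call that was lost without any single DMSO library, as the KO rise was without KO DMSO replicate 2. Atf5, a relative of ATF4 that ATF4 induces, had 18.3, 28.3 and 28.8 FPKM in KO DAC and 27.8, 25.7 and 15.9 FPKM in WT DAC cells. Atf5 under DMSO had 12.5 and 13.7 FPKM in KO and 16.9 and 18.8 FPKM in WT cells. It was higher in KO DAC than in KO DMSO cells at 0.86 ± 0.25 (SE, limma adjusted p = 0.0209), a call that was lost without KO DAC replicate 2 or 3 or either KO DMSO library. Cebpb was not called in any of these comparisons.

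Of the enzymes of amino acid and one-carbon synthesis, 4 of 6 were higher after decitabine in KO cells, against 23.7% of all genes, and 5 of 6 in WT cells, against 14.5%. Asns makes asparagine from aspartate and glutamine and is a classic ATF4 target. It had 40.1, 38.8 and 35.9 FPKM in KO DAC and 21.4, 22.0 and 22.4 FPKM in WT DAC cells. Asns under DMSO had 26.3 and 24.4 FPKM in KO and 9.49 and 7.12 FPKM in WT cells. No groups overlapped, and the order of the groups was KO DAC, KO DMSO, WT DAC and WT DMSO. The log2 fold change with decitabine was 0.57 ± 0.10 (SE, limma adjusted p = 0.00178) in KO cells and 1.31 ± 0.10 (SE, limma adjusted p = 4.62e-05) in WT cells, with a difference of −0.74 ± 0.14 (SE, limma adjusted p = 0.00607). KO exceeded WT cells by 1.51 ± 0.11 under DMSO (SE, limma adjusted p = 9.35e-06) and by 0.77 ± 0.09 under decitabine (SE, limma adjusted p = 0.000519). Psat1, the transaminase of serine synthesis, had 38.05, 41.8 and 41.3 FPKM in KO DAC and 36.0, 34.7 and 29.0 FPKM in WT DAC cells. Psat1 under DMSO had 19.8 and 20.6 FPKM in KO and 19.8 and 14.7 FPKM in WT cells. Both DAC groups lay above both DMSO groups, at 0.96 ± 0.13 (SE, limma adjusted p = 0.000321) in KO and 0.92 ± 0.13 (SE, limma adjusted p = 0.00092) in WT cells, while KO and WT cells were not called different under either condition. Among the other members of this role, Shmt2 rose with decitabine by 0.72 in KO and 0.64 in WT cells, and Phgdh, the first enzyme of serine synthesis, rose by 0.80 in KO cells, where its estimate in WT cells was 0.39 (limma adjusted p = 0.115). Mthfd2 and Psph rose in WT cells, by 0.71 and 0.31, and were not called in KO cells. The KO estimate of Mthfd2 was 0.55 (limma adjusted p = 0.0605), called in 3 fits that left out a library and under 5 other alternatives. That of Psph was 0.23 (limma adjusted p = 0.0891), called in 1 such fit and under 1 other alternative. Both WT calls were lost with no filter, with the replicate block and in a fit of the 2 groups alone, and when single libraries were left out (8 of 10 fits for Psph and 4 of 10 for Mthfd2).

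The amino acid transporters did not move as a group. Slc7a3, a transporter of cationic amino acids, had 1.03, 0.973 and 1.21 FPKM in KO DAC and 0.555, 0.679 and 0.594 FPKM in WT DAC cells. Slc7a3 under DMSO had 3.22 and 3.36 FPKM in KO and 0.724 and 0.781 FPKM in WT cells. Its KO DMSO libraries lay above all others. It passed the filter only through the KO libraries, so its estimates are given as descriptions: 1.29 for KO over WT DMSO, −1.05 with decitabine in KO cells and −0.12 in WT cells. As a low gene it moved with the pseudocount, at 1.99 for KO over WT DMSO with a pseudocount of 0.1. Slc3a2, the shared heavy chain of several amino acid exchangers, had 46.7, 53.9 and 51.8 FPKM in KO DAC and 62.9, 63.8 and 59.9 FPKM in WT DAC cells. Slc3a2 under DMSO had 48.5 and 45.4 FPKM in KO and 60.3 and 58.9 FPKM in WT cells. It was lower in KO than in WT cells with no overlap, at −0.29 ± 0.06 (SE, limma adjusted p = 0.0097) under decitabine and −0.34 ± 0.07 (SE, limma adjusted p = 0.00583) under DMSO, where the call was lost without KO DMSO replicate 2. Slc7a5, its partner in large neutral amino acid transport, rose with decitabine by 0.45 in KO and 0.58 in WT cells. Slc7a11, the cystine transporter, had 0.996 to 1.26 FPKM in KO and 0.815 to 0.841 FPKM in WT libraries. It was not called in the main fit, and KO against WT was called on recovered reads under both conditions. It passed the filter only through the KO libraries, so these values too are descriptions.

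The tRNA synthetases rose with decitabine in 4 of 4 cases in KO cells, against 23.7% of all genes, and in 3 of 4 in WT cells, against 14.5%. Wars charges the tRNA for tryptophan and is also known as an interferon-induced gene. It had 16.2, 15.8 and 16.8 FPKM in KO DAC and 15.9, 15.8 and 14.4 FPKM in WT DAC cells. Wars under DMSO had 8.77 and 7.57 FPKM in KO and 11.7 and 9.64 FPKM in WT cells. Both DAC groups lay above both DMSO groups, at 0.91 ± 0.09 (SE, limma adjusted p = 6.56e-05) in KO and 0.49 ± 0.09 (SE, limma adjusted p = 0.00436) in WT cells, and KO DMSO was below WT DMSO at −0.35 ± 0.10 (SE, limma adjusted p = 0.0223). The decitabine effect on Wars was larger in KO cells by 0.42 ± 0.13 (SE, limma adjusted p = 0.0451), a call that was lost with no filter, with the replicate block and in 8 of 10 fits that left out a library. The Wars difference under DMSO was lost without KO DMSO replicate 2 or WT DMSO replicate 1 and in a fit of those groups alone. Gars, the glycine enzyme, rose by 0.28 in KO and 0.67 in WT cells, a difference of −0.39 ± 0.07 (SE, limma adjusted p = 0.00461). Nars and Aars rose by 0.44 and 0.28 in KO cells, and in WT cells Nars rose by 0.56 and Aars was at 0.24 (limma adjusted p = 0.0648). The KO call of Aars was lost without either KO DMSO library or KO DAC replicate 3. Of 8 further tRNA synthetase genes outside the 38, 7 rose and 0 fell in KO cells, and 6 rose and 0 fell in WT cells.

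Among secreted, surface and glutathione genes, Chac1, an enzyme that degrades glutathione, had 10.99, 12.2 and 11.2 FPKM in KO DAC and 10.6, 9.74 and 7.28 FPKM in WT DAC cells. Chac1 under DMSO had 13.7 and 14.8 FPKM in KO and 5.78 and 5.09 FPKM in WT cells. It rose with decitabine in WT cells at 0.65 ± 0.13 (SE, limma adjusted p = 0.00677), with all WT DAC libraries above both WT DMSO libraries, and this call was lost without WT DMSO replicate 2 and in a fit of the 2 groups alone. KO DMSO cells were above WT DMSO cells at 1.25 ± 0.15 (SE, limma adjusted p = 0.00017) and above KO DAC cells in every library, where the estimate was −0.29 (limma adjusted p = 0.109), and the decitabine effects differed by −0.95 ± 0.19 (SE, limma adjusted p = 0.00703). Gdf15, a secreted stress cytokine, had 2.51, 3.37 and 3.36 FPKM in KO DAC and 3.84, 3.06 and 1.63 FPKM in WT DAC cells. Gdf15 under DMSO had 0.766 and 0.209 FPKM in KO and 0.422 and 0.600 FPKM in WT cells. Each DAC library was above each DMSO library. Gdf15 passed the filter only through the DAC groups, so its estimates are given as descriptions, 1.48 in KO and 1.30 in WT cells. The DMSO levels rested on as few as 12 reads, and with a pseudocount of 0.1 the same values were 2.61 and 2.20. Vldlr, a lipoprotein receptor induced by ATF4, had 2.42, 2.27 and 2.11 FPKM in KO DAC and 1.30, 1.34 and 1.28 FPKM in WT DAC cells. Vldlr under DMSO had 4.14 and 3.73 FPKM in KO and 1.502 and 1.34 FPKM in WT cells. It was higher in KO cells under both conditions, at 0.50 ± 0.07 (SE, limma adjusted p = 0.00183) with decitabine and 1.03 ± 0.09 (SE, limma adjusted p = 2.92e-05) with DMSO, and fell with decitabine in KO cells (−0.60 ± 0.08, SE, limma adjusted p = 0.000449), with a difference from WT cells of −0.53 ± 0.12 (SE, limma adjusted p = 0.0117) that was not called without KO DMSO replicate 1 or WT DMSO replicate 2. On reads recovered from the values, KO DAC against WT DAC was 0.79 for Vldlr. Stc2, a secreted glycoprotein of stressed cells, rose by 0.59 in KO cells and had 0.37 (limma adjusted p = 0.0872) in WT cells. The KO call of Stc2 was lost without KO DMSO replicate 1.

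The sensors and transcription factors of the ER arm (Atf6, Ern1 and Xbp1) behaved unlike the chaperones. Atf6 had 9.41, 8.87 and 9.80 FPKM in KO DAC and 8.49, 8.62 and 9.11 FPKM in WT DAC cells. Atf6 under DMSO had 12.4 and 12.2 FPKM in KO and 5.90 and 5.39 FPKM in WT cells. Its level was highest in KO DMSO and lowest in WT DMSO cells, with no overlap, at 1.002 ± 0.07 (SE, limma adjusted p = 7.06e-06). The decitabine groups lay closer, with a change of −0.36 ± 0.06 (SE, limma adjusted p = 0.00179) in KO and 0.55 ± 0.06 (SE, limma adjusted p = 0.000367) in WT cells, a difference of −0.91 ± 0.09 (SE, limma adjusted p = 0.000154). Ern1 had 8.99, 8.81 and 10.1 FPKM in KO DAC and 6.32, 6.52 and 6.11 FPKM in WT DAC cells. Ern1 under DMSO had 7.89 and 8.02 FPKM in KO and 3.98 and 4.29 FPKM in WT cells. KO lay above WT cells with no overlap, at 0.49 ± 0.06 (SE, limma adjusted p = 0.000907) under decitabine and 0.80 ± 0.08 (SE, limma adjusted p = 5.49e-05) under DMSO, and it rose with decitabine by 0.20 in KO cells, the call noted above as lost in 8 of 10 fits, and by 0.51 in WT cells. Xbp1 had 12.4, 12.2 and 12.5 FPKM in KO DAC and 11.4, 10.9 and 11.6 FPKM in WT DAC cells. Xbp1 under DMSO had 16.1 and 14.6 FPKM in KO and 10.8 and 9.71 FPKM in WT cells. KO cells exceeded WT cells under DMSO at 0.54 ± 0.07 (SE, limma adjusted p = 0.000339), and Xbp1 fell with decitabine in KO cells (−0.29 ± 0.06, SE, limma adjusted p = 0.00621), a call that was lost without KO DMSO replicate 1 (−0.22, limma adjusted p = 0.0714). The difference from WT cells was −0.42 ± 0.09 (SE, limma adjusted p = 0.0108), which without that library was −0.35 (limma adjusted p = 0.0601). These values count all Xbp1 transcripts, and splicing by ERN1 was not measured. All 3 genes of this role, the sensors Atf6 and Ern1 and the transcription factor gene Xbp1, were higher in KO than in WT cells under DMSO, against 19.6% of all genes.

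The chaperones differed among themselves, and between the genotypes, in the decitabine libraries. Hspa5 had 34.4, 42.8 and 41.9 FPKM in KO DAC and 54.7, 56.4 and 42.3 FPKM in WT DAC cells. Hspa5 under DMSO had 44.2 and 46.2 FPKM in KO and 47.3 and 44.4 FPKM in WT cells. KO DAC libraries lay below KO DMSO libraries and the other groups overlapped, and Hspa5 was not called in any of the 4 comparisons (−0.19, limma adjusted p = 0.278 for KO DAC against KO DMSO). Without the 2 libraries that stood apart, WT DAC against WT DMSO was called, at 0.27 (limma adjusted p = 0.00396). KO DAC against WT DAC was −0.35 (limma adjusted p = 0.0658), and without WT DAC replicate 3 it was called, at −0.48 (limma adjusted p = 0.00881), as it was on recovered reads, at −0.36 (limma-voom adjusted p = 0.0205). The difference in decitabine effect was −0.33 (limma adjusted p = 0.245), and was called without WT DAC replicate 3, at −0.46 (limma adjusted p = 0.0431). Hsp90b1 had 155, 129.6 and 132 FPKM in KO DAC and 140.2, 147 and 163 FPKM in WT DAC cells. Hsp90b1 under DMSO had 98.4 and 94.2 FPKM in KO and 154 and 148 FPKM in WT cells. It was lower in KO than in WT DMSO cells with no overlap, at −0.64 ± 0.10 (SE, limma adjusted p = 0.000855), and higher in KO DAC than in KO DMSO cells at 0.52 ± 0.09 (SE, limma adjusted p = 0.00167), with WT DAC and WT DMSO libraries overlapping and a difference of 0.53 ± 0.13 (SE, limma adjusted p = 0.0169). That difference was not called without either KO DMSO library or WT DMSO replicate 1. Pdia6, a disulfide isomerase, had 17.3, 20.7 and 21.2 FPKM in KO DAC and 27.6, 25.0 and 20.9 FPKM in WT DAC cells. Pdia6 under DMSO had 14.7 and 14.9 FPKM in KO and 24.4 and 24.3 FPKM in WT cells. It was lower in KO DMSO than in WT DMSO cells, at −0.68 ± 0.13 (SE, limma adjusted p = 0.00274), with no overlap. Dnajc3, a cochaperone of HSPA5 also called P58IPK, had 8.21, 9.502 and 8.71 FPKM in KO DAC and 12.2, 12.2 and 10.9 FPKM in WT DAC cells. Dnajc3 under DMSO had 11.1 and 9.91 FPKM in KO and 10.9 and 11.3 FPKM in WT cells. It was lower in KO DAC than in WT DAC cells with no overlap, at −0.38 ± 0.07 (SE, limma adjusted p = 0.00643). In KO cells 3 of the 9 folding genes rose with decitabine (Hsp90b1, Pdia6 and Manf, by 0.52, 0.38 and 0.41) and Dnajc3 fell (−0.23), against 23.7% of all genes higher and 21.6% lower. Of these calls, that of Pdia6 was lost with the replicate block and without either KO DMSO library or KO DAC replicate 2 or 3, that of Manf without KO DMSO replicate 2, and that of Dnajc3 in 7 of 10 fits that left out a library, with median scaling and with the replicate block. Dnajb9, Sdf2l1, Creld2 and Herpud1 were not called in any comparison of the decitabine libraries. Pdia4 was called once, at 0.13 for KO DAC against WT DAC (limma adjusted p = 0.0456), a call that was lost whichever of the 10 libraries was left out, with the replicate block, in a fit of the 2 groups alone and on recovered reads.

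**Figure D4:**
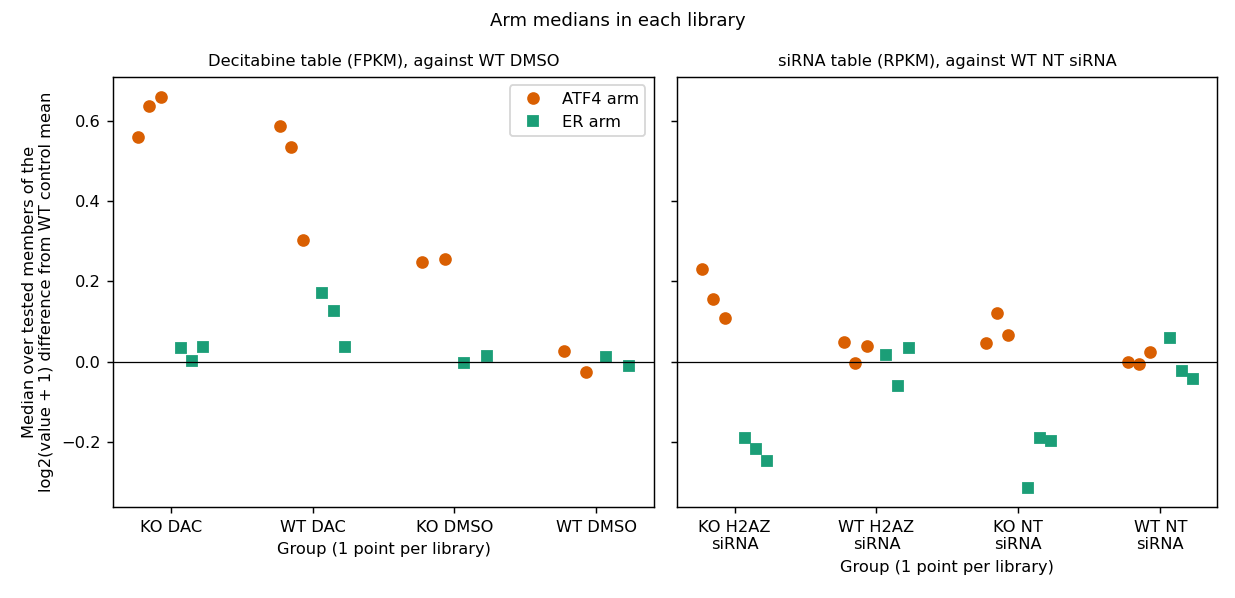
Median log2 difference of each arm from the mean of the WT control group (WT DMSO left, WT NT siRNA right), 1 point per library, with the ATF4 arm as orange circles and the ER arm as green squares. ATF4-arm medians lie at 0.56 to 0.66 in KO DAC, 0.30 to 0.59 in WT DAC and 0.25 to 0.26 in KO DMSO libraries, and ER-arm medians at −0.32 to −0.19 in the KO siRNA libraries. In the decitabine libraries the ATF4 arm includes Gdf15, Slc7a3 and Slc7a11, which passed the filter only through the groups in which they were high.

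Seen per library on the values as deposited, the ATF4 arm and the ER arm separated in different ways in the decitabine and the siRNA libraries. The ATF4-arm median lay above the WT DMSO mean by 0.62 ± 0.05 in KO DAC (SD, n = 3), 0.48 ± 0.15 in WT DAC (n = 3) and 0.25 and 0.26 in the KO DMSO libraries. The ER-arm median lay at 0.02 ± 0.02 in KO DAC and 0.11 ± 0.07 in WT DAC libraries, and between 0.00 and 0.01 in KO DMSO libraries. The ATF4 arm therefore exceeded the ER arm by 0.60 in KO DAC, 0.36 in WT DAC and 0.25 in KO DMSO libraries. These medians include Gdf15, Slc7a3 and Slc7a11, which passed the filter only through the groups in which they were high. Without them the arm's median log2 fold change was 0.26 for KO over WT DMSO and 0.44 for WT DAC over WT DMSO. Relative to the WT NT siRNA mean, the ATF4-arm median was 0.17 ± 0.06 in KO H2AZ siRNA, 0.03 ± 0.03 in WT H2AZ siRNA and 0.08 ± 0.04 in KO NT siRNA libraries. The ER-arm median was −0.22 ± 0.03 in KO H2AZ siRNA, −0.0033 ± 0.05 in WT H2AZ siRNA and −0.24 ± 0.07 in KO NT siRNA libraries (SD, n = 3 each). The gap between the arms was thus 0.39 in KO H2AZ siRNA and 0.31 in KO NT siRNA libraries, against 0.03 in WT H2AZ siRNA libraries. These medians share their WT control groups and are given as descriptions, without a test. Where the arms lay relative to 0 in the siRNA libraries depended on the scaling. For KO against WT cells the median of all genes was −0.12 under H2AZ siRNA and −0.10 under NT siRNA. With each library scaled to its median, the ATF4 arm was at 0.32 and the ER arm at −0.02 under H2AZ siRNA. Under NT siRNA they were then at 0.20 and −0.11.

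In the siRNA libraries the difference between genotypes lay in the chaperones as well as in the ATF4 arm. Under NT siRNA, 11 of 23 ATF4-arm genes were higher and 4 lower in KO cells (median 0.08), and 0 of 13 ER-arm genes were higher and 7 lower (median −0.24), against 23.7% of all 12668 genes called higher and 40.4% lower (median −0.10). Under H2AZ siRNA, 12 of 23 ATF4-arm genes were higher and 2 lower (median 0.16), and 0 of 13 ER-arm genes were higher and 9 lower (median −0.18), against 20.2% of all genes called higher and 42.7% lower (median −0.12). The KO siRNA libraries carried more 7SL RNA (15.1 to 18.2% of reads) than the WT siRNA libraries (11.8 to 13.4%), and the part of this in the scaling was not tested. Scaling each library to its median moved the ATF4-arm median to 0.20 and the ER-arm median to −0.11 under NT siRNA, with 12 ATF4-arm genes higher and 1 lower, and 2 ER-arm genes higher and 5 lower, where 33.8% of all genes were then called higher and 29.8% lower. With H2AZ siRNA it moved them to 0.32 and −0.02, with 17 ATF4-arm genes higher and 0 lower, and 2 ER-arm genes higher and 6 lower, where 33.8% of all genes were called higher and 28.7% lower. The share of ER-arm genes lower in KO cells, 53.8% under NT siRNA, stands beside the 40.4% of all genes, and 0% of the arm was higher, beside 23.7%.

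**Figure D5:**
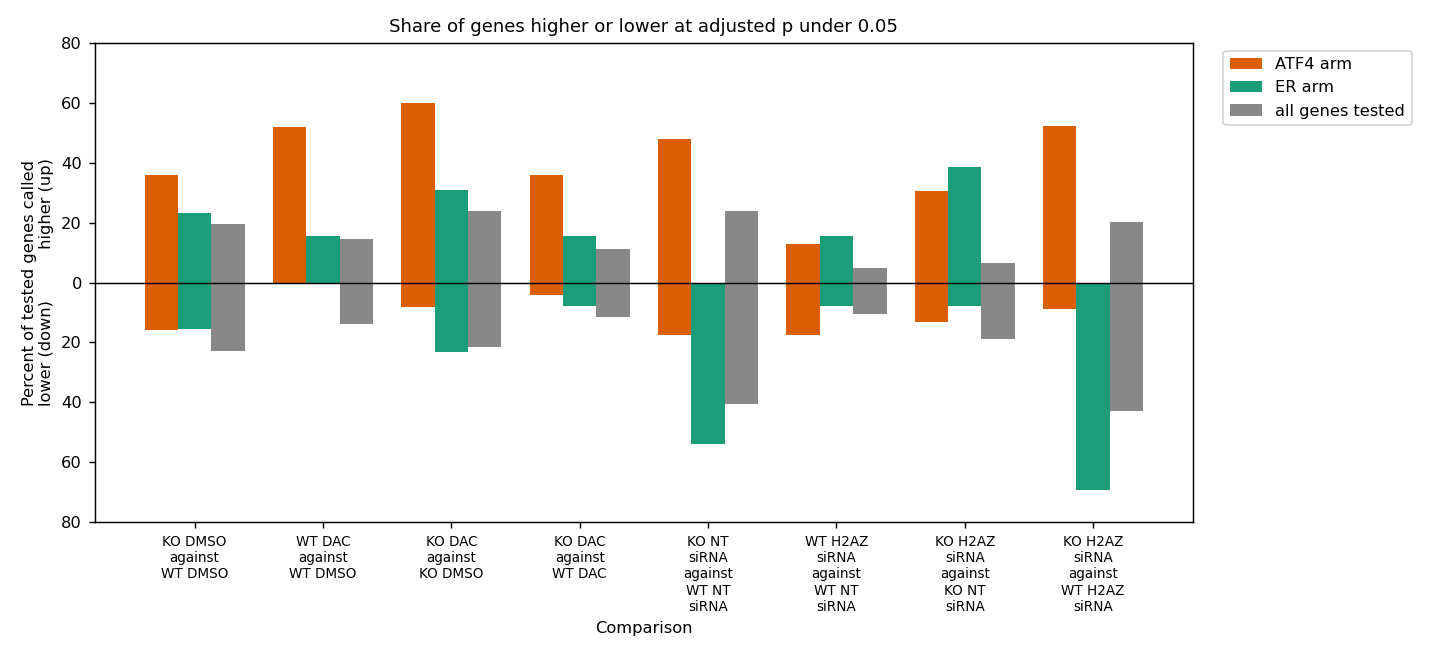
Percentage of tested genes called higher (bars up) and lower (bars down) at a limma adjusted p under 0.05 in the ATF4 arm, the ER arm and among all genes, for the 8 comparisons. For WT DAC against WT DMSO, 52.0% of the ATF4 arm was called higher and 0% lower, beside 14.5% and 13.8% of all genes. Without Gdf15, Slc7a3 and Slc7a11, which depended on the filter, 12 of 22 were higher and 0 lower there.

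Knockdown of H2AZ was followed by smaller changes, of which the largest called were 0.34 in KO (Nars) and −0.52 in WT cells (Nupr1). In KO cells 7 of 23 ATF4-arm genes rose and 3 fell, and 5 of 13 ER-arm genes rose and 1 fell, against 6.56% of all genes called higher and 19.0% lower. These rises are 30.4% of the ATF4 arm and 38.5% of the ER arm. A fit of those 2 groups alone called 7 members higher in place of 12, and 476 of all 12668 genes in place of 831. In WT cells 3 of 23 ATF4-arm genes rose and 4 fell, and 2 of 13 ER-arm genes rose and 1 fell, against 4.88% higher and 10.4% lower. With each library scaled to its median the counts were 18 higher and 1 lower in KO cells, and 7 higher and 3 lower in WT cells, over both arms. Under that scaling 15.9% of all genes were called higher and 10.8% lower in KO cells, and 10.3% higher and 6.93% lower in WT cells. Members called in both genotypes were Mthfd2, Gars and Pdia4, which rose (2.57% of all genes), and Psph, Aars, Wars and Herpud1, which fell (8.28% of all genes). The KO call of Pdia4 was lost in 9 of 12 fits that left out a library. The effect of the knockdown was not called different between genotypes for any of the 36 members tested by limma or on recovered reads. At an unadjusted p under 0.05, limma had 7 of 36 members and the test on recovered reads 8, while limma had 8.64% of all genes, 0.00789% of all genes called higher and 0.0% lower. Gdf15 and Slc7a3 did not pass the filter in these libraries, where they lay at 0.206 to 0.862 RPKM and 0.189 to 0.553 RPKM.

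Among the 7 ATF4-arm regulators, 4 were called higher and 0 lower in KO cells under H2AZ siRNA, against 20.2% and 42.7% of all genes. Under NT siRNA 4 were higher and 1 lower, against 23.7% and 40.4%. Those higher were Trib3, Ddit3, Cebpb and Atf5 under both siRNAs. Trib3 had 13.7, 12.9 and 13.7 RPKM in KO H2AZ siRNA and 7.84, 7.68 and 8.22 RPKM in WT H2AZ siRNA cells. Trib3 under NT siRNA had 13.2, 13.9 and 14.9 RPKM in KO and 7.33, 6.55 and 7.45 RPKM in WT cells. All KO libraries lay above all WT libraries, at 0.69 ± 0.06 (SE, limma adjusted p = 2.17e-06) under H2AZ siRNA and 0.89 ± 0.06 (SE, limma adjusted p = 2.75e-07) under NT siRNA. Ddit3 had 18.4, 17.9 and 18.5 RPKM in KO H2AZ siRNA and 11.01, 11.3 and 12.0 RPKM in WT H2AZ siRNA cells. Ddit3 under NT siRNA had 19.3, 16.7 and 18.1 RPKM in KO and 14.1, 9.77 and 10.7 RPKM in WT cells. KO lay above WT cells without overlap under both siRNAs, at 0.63 ± 0.10 (SE, limma adjusted p = 0.000218) with H2AZ siRNA and 0.61 ± 0.10 (SE, limma adjusted p = 0.000267) with NT siRNA, the opposite of its order under DMSO. The knockdown left Ddit3 at 0.02 (limma adjusted p = 0.912) in KO and 0.00 (limma adjusted p = 0.998) in WT cells. Cebpb, a bZIP partner of ATF4 and CHOP, had 13.9, 15.2 and 15.9 RPKM in KO H2AZ siRNA and 10.50, 9.69 and 9.496 RPKM in WT H2AZ siRNA cells. Cebpb under NT siRNA had 14.0, 12.4 and 15.9 RPKM in KO and 13.1, 10.6 and 10.2 RPKM in WT cells. KO H2AZ siRNA libraries lay above WT H2AZ siRNA libraries with no overlap, at 0.55 ± 0.10 (SE, limma adjusted p = 0.000462). Under NT siRNA Cebpb was at 0.30 (limma adjusted p = 0.0193), a call lost in 3 of 12 fits that left out a library. Atf5 had a mean of 24.3 RPKM in KO and 20.0 RPKM in WT cells under H2AZ siRNA, and of 21.8 and 17.1 RPKM under NT siRNA. Atf4 had 159, 139 and 137 RPKM in KO H2AZ siRNA and 136, 132 and 142 RPKM in WT H2AZ siRNA cells. Atf4 under NT siRNA had 132, 120.0 and 114 RPKM in KO and 137, 121 and 126 RPKM in WT cells. Its groups overlapped between genotypes, at 0.08 (limma adjusted p = 0.324) under H2AZ siRNA (called at 0.24 with each library scaled to its median) and −0.07 (limma adjusted p = 0.387) under NT siRNA. The knockdown gave 0.25 ± 0.07 (SE, limma adjusted p = 0.0233) in KO cells, a call that was lost without KO NT siRNA replicate 2 or 3 or KO H2AZ siRNA replicate 1, with no filter, and in a fit of those 2 groups alone. Nupr1 had 14.2, 14.3 and 14.9 RPKM in KO H2AZ siRNA and 17.0, 15.5 and 16.7 RPKM in WT H2AZ siRNA cells. Nupr1 under NT siRNA had 16.0, 15.3 and 14.9 RPKM in KO and 27.3, 21.3 and 23.9 RPKM in WT cells. WT NT siRNA cells were above the other groups without overlap, and both KO NT against WT NT siRNA (−0.61 ± 0.07, SE, limma adjusted p = 2.97e-05) and WT H2AZ against WT NT siRNA (−0.52 ± 0.07, SE, limma adjusted p = 0.00109) were called.

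The synthesis genes, transporters and tRNA synthetases moved less in the siRNA libraries. Mthfd2, a mitochondrial folate enzyme, had 34.7, 34.1 and 34.4 RPKM in KO H2AZ siRNA and 36.5, 34.6 and 34.0 RPKM in WT H2AZ siRNA cells. Mthfd2 under NT siRNA had 28.0, 27.1 and 28.3 RPKM in KO and 30.4, 31.4 and 29.5 RPKM in WT cells. It rose with the knockdown, at 0.30 ± 0.04 (SE, limma adjusted p = 0.000494) in KO and 0.20 ± 0.04 (SE, limma adjusted p = 0.0087) in WT cells, without overlap. Psph, the last enzyme of serine synthesis, had 6.58, 5.77 and 6.25 RPKM in KO H2AZ siRNA and 6.92, 6.76 and 7.18 RPKM in WT H2AZ siRNA cells. Psph under NT siRNA had 7.68, 7.19 and 7.86 RPKM in KO and 8.77, 8.88 and 8.65 RPKM in WT cells. It fell, at −0.25 ± 0.05 (SE, limma adjusted p = 0.00527) in KO and −0.30 ± 0.05 (SE, limma adjusted p = 0.00368) in WT cells, again without overlap. Both belong to the serine and one-carbon pathway, and they moved oppositely. Asns was higher in KO than in WT cells by 0.25 under H2AZ siRNA and 0.16 under NT siRNA, smaller differences on this scale than in the decitabine libraries, which are another table. Slc3a2, lower in KO cells in the decitabine libraries, was higher in KO cells here, by 0.36 ± 0.04 under H2AZ siRNA (SE, limma adjusted p = 1.38e-05) and by 0.23 ± 0.04 under NT siRNA (SE, limma adjusted p = 0.000398).

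Gars had 143, 139 and 136 RPKM in KO H2AZ siRNA and 154, 155 and 148 RPKM in WT H2AZ siRNA cells. Gars under NT siRNA had 123, 125 and 125 RPKM in KO and 125, 134 and 141 RPKM in WT cells. Within each genotype all H2AZ siRNA libraries lay above the NT siRNA libraries, at 0.16 ± 0.05 (SE, limma adjusted p = 0.0255) in KO and 0.19 ± 0.05 (SE, limma adjusted p = 0.0162) in WT cells. The KO call was lost without KO NT siRNA replicate 1 or 3 or KO H2AZ siRNA replicate 1 or 2. The WT call was lost in a fit of its 2 groups alone (limma adjusted p = 0.0529) and without replicate 1 or 2 of WT H2AZ siRNA. Nars, the asparagine enzyme, had 139, 134 and 127 RPKM in KO H2AZ siRNA and 132, 125 and 129 RPKM in WT H2AZ siRNA cells. Nars under NT siRNA had 109, 108 and 98.9 RPKM in KO and 129.8, 122 and 125 RPKM in WT cells. In KO cells it rose at 0.34 ± 0.05 (SE, limma adjusted p = 0.000642), where its libraries overlapped those of WT H2AZ siRNA cells, and in WT cells its estimate was 0.04 (limma adjusted p = 0.687). Wars had 14.8, 15.8 and 14.7 RPKM in KO H2AZ siRNA and 12.8, 13.4 and 13.7 RPKM in WT H2AZ siRNA cells. Wars under NT siRNA had 17.6, 17.7 and 16.7 RPKM in KO and 14.7, 14.9 and 15.4 RPKM in WT cells. It fell, at −0.18 ± 0.05 (SE, limma adjusted p = 0.0133) in KO and −0.16 ± 0.05 (SE, limma adjusted p = 0.0329) in WT cells, without overlap. Aars, the alanine enzyme, had 37.4, 36.4 and 37.3 RPKM in KO H2AZ siRNA and 34.8, 36.2 and 35.7 RPKM in WT H2AZ siRNA cells. Aars under NT siRNA had 40.8, 43.1 and 41.4 RPKM in KO and 39.5, 38.9 and 40.2 RPKM in WT cells. It also fell, at −0.17 ± 0.04 (SE, limma adjusted p = 0.00704) in KO cells and −0.15 ± 0.04 (SE, limma adjusted p = 0.0195) in WT cells. With each library scaled to its median these falls were −0.10 for Wars in KO cells (limma adjusted p = 0.273) and −0.11 in WT cells (limma adjusted p = 0.265), and −0.08 for Aars in KO cells (limma adjusted p = 0.308). The Aars call in WT cells was lost with that scaling too, and without WT NT siRNA replicate 3 or WT H2AZ siRNA replicate 1 or 3. The Wars calls were also lost in fits of 2 groups alone (limma adjusted p = 0.0547 in KO and 0.0532 in WT cells), and the WT one without any single WT library other than replicate 1 of WT NT siRNA.

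Vldlr had 2.78, 2.52 and 3.11 RPKM in KO H2AZ siRNA and 1.45, 1.53 and 1.51 RPKM in WT H2AZ siRNA cells. Vldlr under NT siRNA had 2.46, 1.96 and 2.31 RPKM in KO and 1.45, 1.010 and 1.13 RPKM in WT cells. Every KO library lay above every WT library, at 0.60 ± 0.09 (SE, limma adjusted p = 0.000117) under H2AZ siRNA and 0.56 ± 0.09 (SE, limma adjusted p = 0.000184) under NT siRNA, and at 0.86 with a pseudocount of 0.1 under NT siRNA. Stc2 had 3.44, 3.12 and 3.29 RPKM in KO H2AZ siRNA and 2.71, 2.87 and 2.81 RPKM in WT H2AZ siRNA cells. Stc2 under NT siRNA had 3.09, 2.56 and 2.69 RPKM in KO and 1.88, 2.11 and 1.86 RPKM in WT cells. KO NT siRNA libraries exceeded WT NT siRNA libraries at 0.36 ± 0.06 (SE, limma adjusted p = 0.00049), and Stc2 rose with the knockdown in WT cells at 0.37 ± 0.06 (SE, limma adjusted p = 0.00343), both without overlap. Chac1 had 16.1, 14.2 and 13.4 RPKM in KO H2AZ siRNA and 10.7, 11.4 and 11.5 RPKM in WT H2AZ siRNA cells. Chac1 under NT siRNA had 11.6, 11.5 and 11.2 RPKM in KO and 9.82, 10.01 and 10.4 RPKM in WT cells. Its KO H2AZ siRNA libraries were above all others, at 0.32 ± 0.06 (SE, limma adjusted p = 0.00286) over KO NT siRNA, and KO lay above WT H2AZ siRNA cells by 0.35.

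Of the 9 ER folding genes, 7 were called lower and 0 higher in KO than in WT cells under H2AZ siRNA, against 42.7% of all genes lower and 20.2% higher. Under NT siRNA 6 were lower and 0 higher, against 40.4% and 23.7%. With each library scaled to its median the calls of Pdia4 and Creld2 under H2AZ siRNA and of Sdf2l1 under NT siRNA were lost. Dnajc3 had 8.83, 8.12 and 8.63 RPKM in KO H2AZ siRNA and 17.1, 15.5 and 17.8 RPKM in WT H2AZ siRNA cells. Dnajc3 under NT siRNA had 11.4, 9.28 and 9.54 RPKM in KO and 23.1, 18.9 and 17.8 RPKM in WT cells. KO libraries were all below WT libraries, at −0.90 ± 0.10 (SE, limma adjusted p = 1.29e-05) with H2AZ siRNA and −0.91 ± 0.10 (SE, limma adjusted p = 1.07e-05) with NT siRNA. Hsp90b1 had 189.6, 193 and 189 RPKM in KO H2AZ siRNA and 293, 259 and 294 RPKM in WT H2AZ siRNA cells. Hsp90b1 under NT siRNA had 168, 141 and 144 RPKM in KO and 299, 254 and 263 RPKM in WT cells. Again no KO library reached a WT library, at −0.56 ± 0.08 (SE, limma adjusted p = 8.22e-05) with H2AZ siRNA and −0.84 ± 0.08 (SE, limma adjusted p = 3.84e-06) with NT siRNA, and in KO cells the knockdown was followed by a higher level (0.34 ± 0.08, SE, limma adjusted p = 0.00942). Hspa5 had 168, 156 and 153 RPKM in KO H2AZ siRNA and 201, 197 and 205 RPKM in WT H2AZ siRNA cells. Hspa5 under NT siRNA had 142, 128 and 133 RPKM in KO and 211, 199 and 191 RPKM in WT cells. It followed the same order, at −0.34 ± 0.05 (SE, limma adjusted p = 0.000187) with H2AZ siRNA and −0.57 ± 0.05 (SE, limma adjusted p = 3.78e-06) with NT siRNA, and rose by 0.24 with the knockdown in KO cells (limma adjusted p = 0.00672), where WT cells had 0.01 (limma adjusted p = 0.943). With each library scaled to its median, KO against WT H2AZ siRNA was −0.18 for Hspa5. Manf, a secreted ER protein, had 19.2, 17.8 and 18.9 RPKM in KO H2AZ siRNA and 26.2, 24.6 and 25.7 RPKM in WT H2AZ siRNA cells. Manf under NT siRNA had 19.0, 18.4 and 18.7 RPKM in KO and 25.6, 26.8 and 25.9 RPKM in WT cells. KO H2AZ siRNA cells were below WT H2AZ siRNA cells at −0.43 ± 0.04 (SE, limma adjusted p = 6.87e-06), or −0.28 after that scaling.

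Pdia4, a disulfide isomerase, had 85.0, 90.1 and 89.0 RPKM in KO H2AZ siRNA and 95.5, 97.9 and 98.3 RPKM in WT H2AZ siRNA cells. Pdia4 under NT siRNA had 79.9, 78.4 and 84.6 RPKM in KO and 85.5, 83.7 and 83.9 RPKM in WT cells. It rose in WT cells at 0.20 ± 0.04 (SE, limma adjusted p = 0.00626), with no overlap. Sdf2l1, a cochaperone of the HSPA5 cycle, had 19.1, 17.9 and 16.5 RPKM in KO H2AZ siRNA and 20.0, 19.6 and 19.3 RPKM in WT H2AZ siRNA cells. Sdf2l1 under NT siRNA had 12.7, 14.9 and 14.4 RPKM in KO and 16.1, 18.3 and 15.6 RPKM in WT cells. It rose in KO cells at 0.33 ± 0.07 (SE, limma adjusted p = 0.00729), with no overlap. Herpud1, a scaffold of ER-associated degradation, had 12.7, 12.8 and 13.6 RPKM in KO H2AZ siRNA and 12.3, 12.3 and 12.0 RPKM in WT H2AZ siRNA cells. Herpud1 under NT siRNA had 15.02, 14.8 and 15.7 RPKM in KO and 16.1, 14.6 and 13.5 RPKM in WT cells. It fell in both KO (−0.20 ± 0.06, SE, limma adjusted p = 0.0232) and WT cells (−0.25 ± 0.06, SE, limma adjusted p = 0.014). The Herpud1 call in WT cells was lost without WT H2AZ siRNA replicate 3, and in KO cells with each library scaled to its median (−0.12, limma adjusted p = 0.145) and without KO NT siRNA replicate 3 or KO H2AZ siRNA replicate 1 or 2. Xbp1 had 12.9, 12.6 and 12.2 RPKM in KO H2AZ siRNA and 15.1, 13.7 and 14.2 RPKM in WT H2AZ siRNA cells. Xbp1 under NT siRNA had 11.7, 12.8 and 12.6 RPKM in KO and 14.6, 14.6 and 15.2 RPKM in WT cells. It was lower in KO cells without overlap, at −0.18 ± 0.05 (SE, limma adjusted p = 0.00778) under H2AZ siRNA and −0.24 ± 0.05 (SE, limma adjusted p = 0.00118) under NT siRNA, and neither call held with each library scaled to its median (−0.02 and −0.12). This order is the reverse of that under DMSO, in another table. Ern1 was near 1 RPKM (1.37 RPKM at most) and not called, except in KO over WT cells with each library scaled to its median (0.15 under H2AZ siRNA, limma adjusted p = 0.0402, and 0.19 under NT siRNA).

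Trib3, Asns, Shmt2 and Vldlr were called higher in KO than in WT cells under all 4 conditions (decitabine, DMSO, H2AZ siRNA and NT siRNA), comparisons that share no library. The Trib3 call under decitabine was lost with the replicate block (limma adjusted p = 0.0608) and in the 4 fits named above, which leaves 3 genes, and the Shmt2 call under DMSO was lost without KO DMSO replicate 1 or WT DMSO replicate 2. They are 4 of the 23 ATF4-arm genes tested in both tables, against 3.29% of all genes. Of the ER arm, 0 of 13 were called higher under all 4 conditions and 0 lower, against 5.12% of all genes lower. Of these 4 genes, Trib3, Asns and Vldlr held the letters of the ATF4 element in the promoter window shown above, and Shmt2 did not, while the other 5 ATF4-arm genes with those letters were not called higher under all 4 conditions. Of the 5 chaperones with an ERSE, Hspa5, Hsp90b1, Pdia6 and Dnajc3 were lower in KO cells under both siRNAs, and Creld2 was at −0.03 (limma adjusted p = 0.548) under NT siRNA and −0.09 (limma adjusted p = 0.0498) under H2AZ siRNA, a call lost in 10 of 12 fits that left out a library. Of the 4 folding genes with no ERSE found, Manf, which had no window, was lower under both siRNAs, Pdia4 under H2AZ siRNA and Sdf2l1 under NT siRNA, and Dnajb9 was not called.

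The members were also set beside other genes of the same pathways. Of 38 further ATF4-pathway genes tested, 21 rose and 4 fell with decitabine in KO cells, and 18 rose and 2 fell in WT cells. Of all genes, 23.7% rose and 21.6% fell in KO cells, and 14.5% rose and 13.8% fell in WT cells. The largest rises were of Bcat1, a branched-chain amino acid transaminase, in KO cells (1.33 ± 0.11, SE, limma adjusted p = 2.54e-05) and Atf3, a stress-induced bZIP factor, in WT cells (1.21 ± 0.11, SE, limma adjusted p = 9.89e-05). Of 30 further ER genes, 8 rose and 3 fell in KO cells, and 7 rose and 4 fell in WT cells. In KO against WT cells under DMSO, where 19.6% of all genes were higher and 22.9% lower, 10 of the 38 ATF4-pathway genes were higher and 7 lower, led by Atf3 (1.495 ± 0.12, SE, limma adjusted p = 1.58e-05), and 3 of the 30 ER genes were higher and 8 lower, led by Creb3l2, a membrane-bound bZIP factor (1.65 ± 0.05, SE, limma adjusted p = 9.17e-08), and by Os9, a degradation lectin (−0.84 ± 0.12, SE, limma adjusted p = 0.000529). Under decitabine 8 ATF4-pathway genes were higher and 2 lower, and 3 ER genes higher and 8 lower, against 11.1% and 11.6% of all genes. In the siRNA libraries 20 of 29 further ER genes were lower and 3 higher in KO cells under H2AZ siRNA, against 42.7% of all genes lower and 20.2% higher. Under NT siRNA 21 were lower and 6 higher, against 40.4% and 23.7%. These ER genes were led by Dnajc10, an ER disulfide reductase (−0.95 ± 0.09, SE, limma adjusted p = 3.17e-06 under NT siRNA). The 13 further ER folding genes alone had 11 lower under either siRNA. The further ATF4-pathway genes had 9 higher and 15 lower under NT siRNA, and 8 higher and 11 lower under H2AZ siRNA, of 38 tested, which is near the same shares. With the knockdown, which was followed by 6.56% of all genes higher and 19.0% lower in KO cells and by 4.88% and 10.4% in WT cells, 5 rose and 4 fell in KO cells and 3 rose and 2 fell in WT cells, led by Sesn2, a stress-induced inhibitor of mTORC1 (0.75 ± 0.08, SE, limma adjusted p = 0.000157 in WT cells). Of the further ER genes, 1 rose and 4 fell in KO cells with the knockdown, and 3 rose and 3 fell in WT cells.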

How the data were processed

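RNA from 22 of the 53 samples was used, and the 31 CUT&Tag samples were not analysed here. The labels name a stranded total RNA kit with paired-end reads, and the submitters' processing notes name STAR, Bowtie2, deepTools and mm10. Not given in the sources used here were versions, the read counter, its annotation and its use of strand. Of the members, 15 overlap another RefSeq gene, so reads of such neighbours may be shared. The decitabine table holds FPKM values deposited by the authors and the siRNA table holds RPKM values deposited by the authors, each scaled to the library's total and the gene's length, as the steps of the values show. Whole reads were recovered from the steps of the values for 28080 of 28080 rows above 0 in enough libraries (tolerance 0.01), and gave the depths stated and the test on recovered reads with limma-voom. No library duplicated another.

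Genes at 1 or more in at least 2 (FPKM) or 3 (RPKM) libraries were kept, 16435 and 12668 in number. log2(value + 1) was fitted per table in limma 3.58.1 (R 4.3.3) with an intensity trend and all 4 groups, with Benjamini-Hochberg adjustment over all genes of each of 10 comparisons and calls at an adjusted p under 0.05. Tables were prepared in Python 3.11.15 with pandas 2.3.3. Members and lists were chosen with earlier results of these data known. Values in every library are given for the up to 4 called members of largest log2 fold change per direction and comparison whose groups did not overlap, for up to 4 called members of each interaction, and for Atf4, Ddit3, Hspa5 and Xbp1. The labels call most libraries biological replicates without saying whether they came from separate cultures or animals, so p-values measure only the spread between these samples. Alternatives were another pseudocount, no or a stricter filter, median centring, a replicate block, a fit of the compared groups alone, leaving out each library, and, chosen after seeing the data, limma-voom and leaving out the libraries that stood apart.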

Additional observations from a re-analysis of the deposited data

Results flagged for a closer look

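For 11 members the effect of decitabine differed between KO and WT cells by the interaction test (limma adjusted p under 0.05 over all 16435 genes), against 12.4% of all genes called with a more positive and 11.7% with a more negative effect in KO cells. The difference, as the decitabine effect in KO minus that in WT cells, was 0.61 for Ddit3, −0.68 for Nupr1, −0.74 for Asns, −0.93 for Slc7a3, −0.39 for Gars, 0.42 for Wars, −0.95 for Chac1 and −0.53 for Vldlr in the ATF4 arm. Slc7a3 passed the filter on low values only through the KO libraries, so its value is a description. In the ER arm it was −0.42 for Xbp1, −0.91 for Atf6 and 0.53 for Hsp90b1. The sum of the mesothelial markers was 126 to 148 FPKM in KO DAC and 1162 to 1197 FPKM in KO DMSO cells, against 44.6 to 59.2 FPKM in WT DAC and 10.8 to 13.3 FPKM in WT DMSO cells, so it moved oppositely in the genotypes, and its part in these differences was not tested.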

How the results depend on the processing

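Of 152 calls of single members over the 10 comparisons, 53 were lost under at least 1 alternative, 46 of them when a library was left out, and of 218 values not called, 75 were called under at least 1. For KO against WT H2AZ siRNA, median centring reversed the direction of Psph (0.0097), Gars (0.025), Pdia4 (0.012) and Creld2 (0.059), all called lower before and not called then, and of Ern1 (0.15), not called before and called higher then. ER-arm medians near 0 took either sign, as given below. The main fit did not pair samples by replicate number. Deviations of same-numbered libraries correlated at −0.225 to 0.126 over 13 pairs (1 over 0.1) in the decitabine libraries and −0.104 to 0.319 over 18 pairs (6 over 0.1) in the siRNA libraries. Of these libraries, 4 of 10 and 7 of 12 correlated best with their own number. The replicate block called fewer genes in the decitabine comparisons and more in the siRNA ones. For WT H2AZ siRNA against WT NT siRNA it called 721 genes higher and 1543 lower, in place of 618 and 1315. Pairing of the siRNA libraries is therefore not excluded. With the replicate block Trib3 in KO DAC against WT DAC had 0.55 (limma adjusted p = 0.0608). Low genes (Gdf15, Slc7a3) are limited by reads, 12 at the fewest.

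The ATF4-arm median was 0.36 with a pseudocount of 0.1 and 0.38 on recovered reads for KO against WT DMSO cells. For WT DAC against WT DMSO it was 0.53 with a pseudocount of 0.1, 0.56 with a filter at 5, 0.53 on recovered reads and 0.56 without the libraries that stood apart. For KO NT against WT NT siRNA it was 0.024 with no filter. Without the libraries that stood apart, members lower were 10 for KO DMSO against WT DMSO, 1 for WT DAC against WT DMSO and 6 for KO DAC against WT DAC, where the ER-arm median was −0.13. Of all 16249 genes in that fit, 4591, 2623 and 2199 were lower in these comparisons. Members with a more positive decitabine effect in KO cells were then 6, beside 2484 of all genes. For KO DAC against WT DAC, 6 members were lower on recovered reads, beside 2157 of all 16408 genes. For KO DAC against KO DMSO, 3 members were lower with a filter at 5, beside 2248 of all 9582 genes. The ER-arm median for WT H2AZ siRNA against WT NT siRNA was 0.046 without the libraries that stood apart. A fit of KO H2AZ siRNA and KO NT siRNA alone gave 7 members higher in place of 12, and 476 of all 12668 genes in place of 831.

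Median centring gave an ER-arm median of 0.17 for WT DAC against WT DMSO. For KO NT against WT NT siRNA it gave 6 members lower and arm medians of 0.20 (ATF4) and −0.11 (ER). For WT H2AZ siRNA against WT NT siRNA it gave 3 lower, 0.085 and 0.044. For KO H2AZ siRNA against KO NT siRNA it gave 1 lower, 0.20 and 0.18. For KO against WT H2AZ siRNA it gave 19 higher, 6 lower, 0.32 and −0.025.

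Leaving out each library gave ATF4-arm medians of 0.21 to 0.42 for KO against WT DMSO and 0.31 to 0.56 for WT DAC against WT DMSO. ER-arm medians ran between −0.0705 and 0.013 for KO against WT DMSO, 0.057 and 0.19 for WT DAC against WT DMSO, 0.016 and 0.092 for KO DAC against KO DMSO, −0.078 and 0.0012 for KO DAC against WT DAC, −0.25 and −0.023 for the difference in decitabine effect, −0.27 and −0.17 for KO NT against WT NT siRNA, and −0.026 and 0.046 for WT H2AZ siRNA against WT NT siRNA. Members lower numbered 3 to 7 for KO DAC against KO DMSO, 2 to 7 for KO DAC against WT DAC and 2 to 6 for WT H2AZ siRNA against WT NT siRNA. Members higher numbered 7 to 10 for KO DAC against WT DAC and 3 to 7 for WT H2AZ siRNA against WT NT siRNA. For the difference in decitabine effect, 1 to 3 were more positive and 5 to 11 more negative in KO cells. The cause was not tested.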
